A study of Mus musculus with 5 samples.

Results

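The genes described here are the upstream switch of the retinoblastoma (RB) pathway in mouse embryonic fibroblasts: the D cyclins (Ccnd1, Ccnd2, Ccnd3), their kinases (Cdk4, Cdk6), the INK4 inhibitors (Cdkn2a, Cdkn2b, Cdkn2c, Cdkn2d) and Rb1. They were taken by symbol from a table of 23337 genes, and all 10 were found and passed the filter on low values, as did 13062 genes in all. The set was chosen by a measured value: the Ccnd2 level was already known to be much higher in the libraries labelled knockout (KO) than in those labelled wild type (WT). The KO against WT difference of these 10 genes is therefore given as a description, with a standard error and no p-value. The cells were fibroblasts of strain 129Sv with genotype SIRT3 -/- (2 libraries, labelled KO) or wild type (3 libraries, labelled WT), in normal culture conditions as labelled. SIRT3 removes acyl groups from mitochondrial proteins. All 5 libraries came from cells immortalized with the SV40 T antigen, so both groups carry it. Whether the libraries that share a genotype are separate cultures, lines or embryos is not labelled. The p-values further on thus measure a spread that may be technical only.

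In a dividing cell, growth signals raise the D cyclins, which bind CDK4 or CDK6 and start the phosphorylation of RB. Phosphorylated RB lets go of the E2F transcription factors, which then switch on the genes of DNA replication. INK4 proteins bind CDK4 and CDK6 and keep the D cyclins off them. The SV40 large T antigen binds RB and its relatives directly and also binds p53, so in such cells the pathway is already open below the D cyclins, and growth of RB-deficient fibroblasts is known not to need CDK4 or CDK6 activity. Cdkn2a is unusual in giving a pair of unrelated proteins from different first exons: p16INK4a, the CDK inhibitor, and p19ARF, which holds back MDM2 and so protects p53. The levels below are of RNA in bulk samples, in which a gene expressed by fewer cells and one with less RNA per cell cannot be told apart.

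The libraries held between 33473103 and 41758681 reads assigned to genes. Values are normalized read counts, which the authors scaled to make libraries of unlike depth comparable, or RPKM, which they also divided by gene length. Each log2 fold change is KO-labelled over WT-labelled with 1 added to every normalized count, which understates the change of low genes. Sirt3, the targeted gene, had 200.4 and 216.8 normalized read counts in the KO-labelled libraries and 169.7, 149.4 and 118.4 in the WT-labelled ones. Its transcript was thus not missing from the libraries labelled KO, where it was called higher (log2 fold change 0.53, limma, adjusted p = 0.00445). Directions are given between libraries as labelled. Of 11 fibroblast markers 10 were tested, of which 2 were higher and 6 lower in the KO-labelled libraries. Vim, Fn1, Col1a1 and Col1a2 were abundant in all libraries, Lum was under 10 normalized counts in every one, and the summed level was 4912 to 5025 RPKM in the KO-labelled and 5708 to 5904 RPKM in the WT-labelled libraries. Pdgfra, a fibroblast receptor gene, had 1185 and 1324 normalized read counts in the KO-labelled libraries and 19752 to 20181 in the WT-labelled ones. Col3a1 was at 40.0 and 39.1 RPKM in the KO-labelled libraries and 184.9 to 195.3 RPKM in the WT-labelled ones. Dcn was at 0.616 and 0.414 RPKM in the KO-labelled libraries and 2.50 to 2.92 RPKM in the WT-labelled ones. Markers of epithelium, endothelium, blood and skeletal muscle summed to at most 0.494, 0.374, 1.75 and 1.29 RPKM in the KO-labelled and 0.164, 0.222, 2.06 and 0.271 RPKM in the WT-labelled libraries, with Myod1 at 0 in all. The 5 neural markers summed to 48.7 to 50.8 RPKM in the KO-labelled and 47.7 to 48.6 RPKM in the WT-labelled libraries. That sum came mostly from Nes, Sox2 and Tubb3, which moved in opposite directions (limma on all genes): Nes was higher in the KO-labelled libraries, at 19.8 and 20.7 RPKM against 2.94 to 3.34 RPKM in the WT-labelled ones (adjusted p = 1e-19). Sox2 and Tubb3 were lower, by log2 values of -0.50 and -0.80 (adjusted p = 9e-09 and 1.5e-09), while the neuronal marker Rbfox3 was at 0 in all. The part of these marker differences in the values below was not tested.

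Promoter sequences of 7 of the 10 genes were found, in 10 windows from RefSeq (build GRCm38.p6), each 250 bases before and 50 after a transcript start. Those of Cdk4, the most abundant of the 10 genes, and of both starts of Cdkn2a are shown. The Cdk4 window was picked because it repeats the E-box, and those of Cdkn2a because its total joins transcripts from separate promoters. Capitals mark the motif letters searched on both strands: the E-box CACGTG, which MYC can bind, an E2F-type site (TTTCCCGC, TTTGGCGC, TTTCGCGC or TTTGCCGC), AP-1 (TGANTCA), CRE (TGACGTCA), the CCAAT box, the GC box GGGCGG and the TATA box TATAAA. Windows run 5′ to 3′ along the gene. In the downstream Cdkn2a window a CCAAT box and a GC box overlap.
Cdk4, chr10:127063285-127063584, plus strand: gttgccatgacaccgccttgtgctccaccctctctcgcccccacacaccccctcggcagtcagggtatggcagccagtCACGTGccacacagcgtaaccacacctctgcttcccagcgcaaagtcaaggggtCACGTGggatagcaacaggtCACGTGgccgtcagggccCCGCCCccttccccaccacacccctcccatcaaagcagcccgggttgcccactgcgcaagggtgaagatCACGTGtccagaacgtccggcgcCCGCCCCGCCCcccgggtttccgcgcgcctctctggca
Cdkn2a, upstream start (the ARF first exon), chr4:89294570-89294869, minus strand: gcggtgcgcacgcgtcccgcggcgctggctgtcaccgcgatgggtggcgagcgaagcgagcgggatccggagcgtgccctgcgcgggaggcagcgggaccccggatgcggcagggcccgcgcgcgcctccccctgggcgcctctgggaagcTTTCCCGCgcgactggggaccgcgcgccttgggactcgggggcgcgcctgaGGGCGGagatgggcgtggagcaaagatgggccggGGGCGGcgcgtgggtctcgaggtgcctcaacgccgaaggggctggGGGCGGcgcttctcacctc
Cdkn2a, downstream start (the INK4a first exon), chr4:89282143-89282442, minus strand: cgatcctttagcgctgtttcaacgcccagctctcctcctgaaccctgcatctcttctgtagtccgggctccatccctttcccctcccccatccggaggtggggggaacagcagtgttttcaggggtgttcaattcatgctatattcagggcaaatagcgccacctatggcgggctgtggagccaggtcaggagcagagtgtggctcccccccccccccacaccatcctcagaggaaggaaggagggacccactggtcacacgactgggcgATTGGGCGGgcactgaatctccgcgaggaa

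The Cdk4 window held 4 E-boxes and 3 GC boxes. Of all 32851 promoter windows, 8, Cdk4 included, held 4 or more E-boxes. At least 1 E-box was found in 7.15% of all windows, Cdk6 and 1 of the Cdkn2c windows among them. The upstream Cdkn2a window held 1 E2F-type match (TTTCCCGC) and 3 GC boxes, and the downstream one held none of the E2F letters. An E2F-type match was found in 2.26% and a GC box in 35.7% of all windows, AP-1 letters in 7.81%, CRE letters in 1.79%, a CCAAT box in 37.4% and a TATA box in 13.6%. These matches are letters in a window and show no binding.

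Ccnd2, which encodes cyclin D2, had by far the widest gap between the groups among the 10 genes. It lies on chromosome 6 from 127125162 to 127152188 (GRCm38, the assembly that mm10 also names). Its normalized read counts were 2799 and 3131.5 in KO-labelled replicates 1 and 2, against 326, 344 and 342 in WT-labelled replicates 1, 2 and 3. Both KO-labelled libraries were far above all WT-labelled ones. The KO-labelled mean was 2965 ± 235 (SD, n = 2) and the WT-labelled mean 337.6 ± 9.94 (SD, n = 3). Their ratio was 8.785, or 3.13 ± 0.070 on the log2 scale (standard error). In RPKM it was 13.2 and 14.5 in the KO-labelled libraries and 1.53, 1.61 and 1.61 in the WT-labelled ones. Per length, the transcript was above 59.4% of all tested genes in the KO-labelled libraries and above 22.4% in the WT-labelled ones. Among the 13062 genes, 128 had a larger positive log2 fold change.

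The other D cyclins differed much less. Ccnd3, for cyclin D3, had 6131 and 6102 normalized read counts in the KO-labelled libraries, against 4525, 4337 and 4355 in the WT-labelled ones. The groups did not overlap, and the ratio of means was 1.39 (log2 fold change 0.47, standard error 0.039). Ccnd1, for cyclin D1, the D cyclin most often studied in fibroblasts, had 16779 and 18109 normalized read counts in the KO-labelled libraries, against 17515, 17639 and 18051 in the WT-labelled ones. The WT-labelled values lay between the KO-labelled ones, and the log2 fold change was -0.025 (standard error 0.039).

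Read per length, Ccnd1 was the most abundant D cyclin transcript and Ccnd2 the least abundant in every library. Ccnd2 made up 6.37% and 6.77% of the summed D cyclin RPKM in the KO-labelled libraries and 0.847%, 0.900% and 0.880% in the WT-labelled ones. Ccnd1 made up 58.0% and 59.5% in the KO-labelled libraries, against 69.2% to 70.5% in the WT-labelled ones. Ccnd3 made up 35.6% and 33.7% in the KO-labelled libraries, against 28.6% to 30.0% in the WT-labelled ones. Ccnd1 exceeded Ccnd2 by 9.11 and 8.79 times in the KO-labelled libraries and by 77.9 to 81.6 times in the WT-labelled ones. The summed level was 207 and 215 RPKM in the KO-labelled libraries and 179 to 183 RPKM in the WT-labelled ones. Without Ccnd2 the sum was still higher in the KO-labelled libraries, at 193.5 and 200.1 RPKM, against 177.5 to 181.0 RPKM in the WT-labelled ones. These shares are a description, since they rest on the difference for which the set was chosen.

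**Figure D1:**
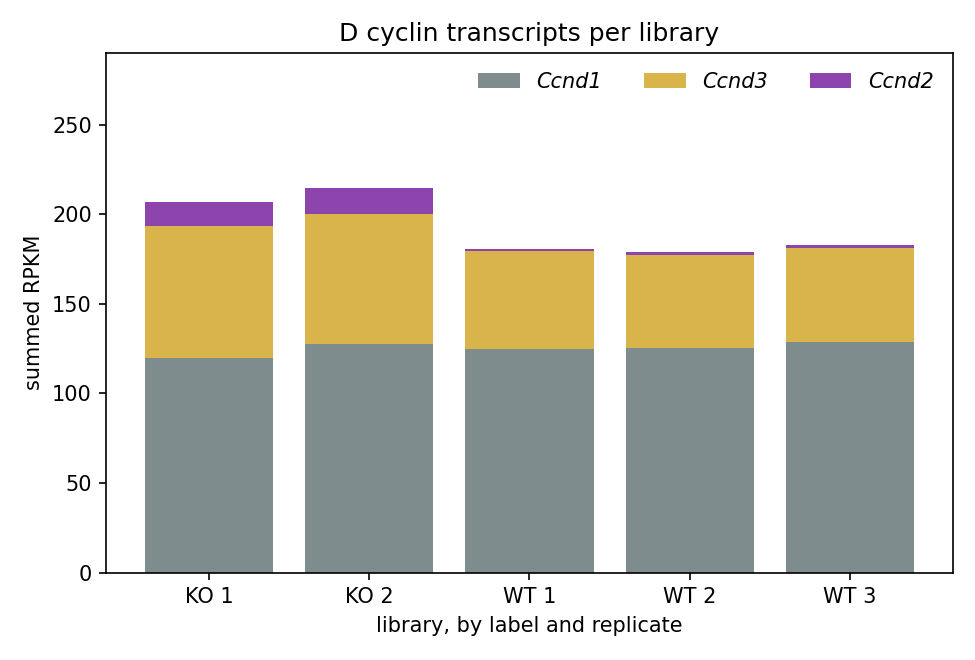
Summed RPKM (vertical axis, from 0) of the D cyclin genes in each library, as bars stacked by gene, with the 2 KO-labelled libraries left of the 3 WT-labelled ones. The Ccnd2 part is 6.37% and 6.77% of the KO-labelled bars and under 1% of the WT-labelled bars, and the Ccnd1 part is the largest in all 5.

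The kinase genes went apart: Cdk4 was lower in the KO-labelled libraries and Cdk6 was level. Cdk4, on chromosome 10 from 127063535 to 127067288, had 22845.5 and 22119 normalized read counts in the KO-labelled libraries, against 30498.5, 30366 and 30216 in the WT-labelled ones. Both KO-labelled values were below all WT-labelled ones. The KO-labelled mean was 22482 ± 513 (SD, n = 2) and the WT-labelled mean 30360.3 ± 141 (SD, n = 3), which is -0.43 ± 0.036 on the log2 scale (standard error). At 460 and 440.1 RPKM in the KO-labelled and 608 to 614 RPKM in the WT-labelled libraries, it was the most abundant of the 10 genes in every library and stood above 99.5% of all tested genes in the KO-labelled and 99.7% in the WT-labelled group. Cdk6 had 2917 and 3101.5 normalized read counts in the KO-labelled libraries, against 3046, 3049.8 and 2933 in the WT-labelled ones. The groups overlapped and the means were 3009 in each, so that the log2 fold change was -0.0005 (standard error 0.045). The ratio of Cdk4 to Cdk6 RPKM was 14.4 and 13.1 in the KO-labelled libraries and 18.3 to 18.9 in the WT-labelled ones. The sum of both kinases was 493 and 474 RPKM in the KO-labelled libraries and 640.2 to 647 RPKM in the WT-labelled ones.

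**Figure D2:**
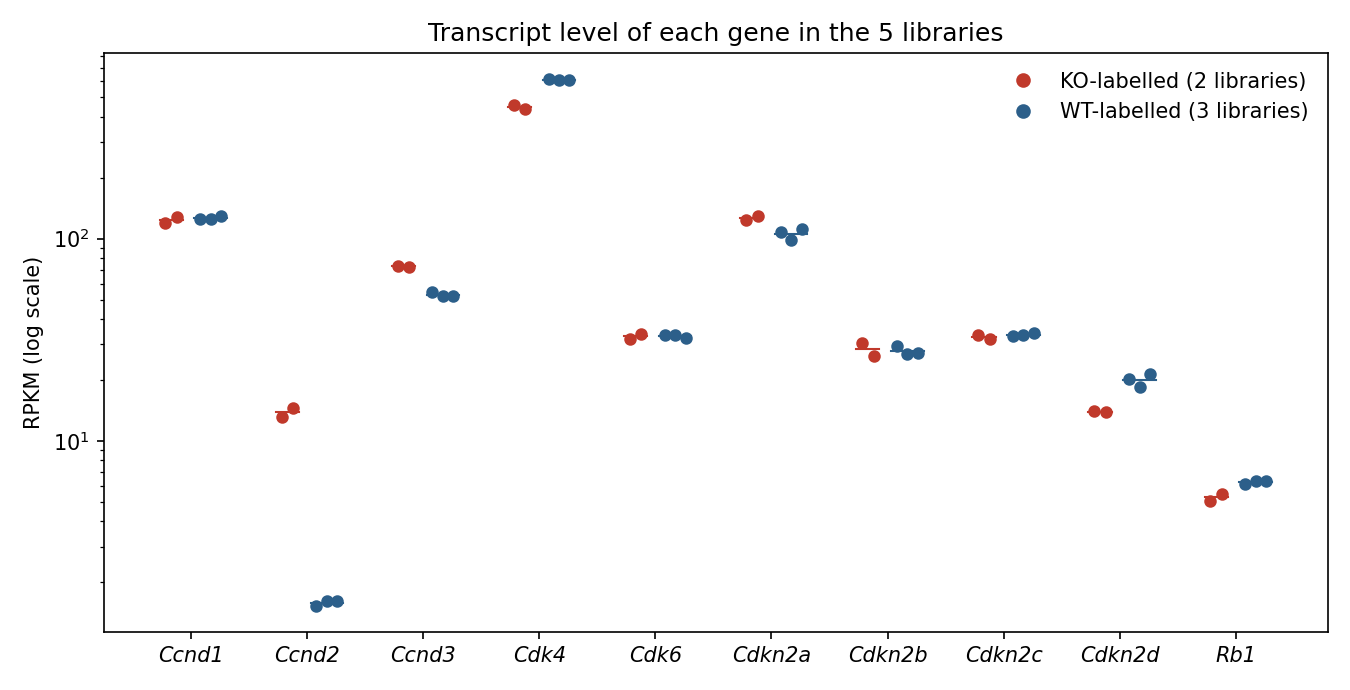
RPKM on a log scale (vertical axis) of the 10 genes in each library, one dot per library, with the 2 KO-labelled libraries left of the 3 WT-labelled ones and lines at the group means. Ccnd2 has the widest gap between the groups, at 13.2 and 14.5 RPKM in the KO-labelled libraries against 1.53 to 1.61 RPKM in the WT-labelled ones.

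Of the INK4 genes, Cdkn2a was higher, Cdkn2d was lower, and Cdkn2b and Cdkn2c overlapped between the groups. Cdkn2a, on chromosome 4 from 89274473 to 89294619, had 5162 and 5471 normalized read counts in the KO-labelled libraries, against 4529, 4134 and 4672 in the WT-labelled ones. The lowest KO-labelled value was above the highest WT-labelled one, and the log2 fold change was 0.26 (standard error 0.048). The table gives 1 total per gene, so the p16INK4a and p19ARF transcripts, which share their later exons, could not be told apart. Cdkn2d, which encodes p19INK4d (chromosome 9, 21288459 to 21291421), had 656 and 655 normalized read counts in the KO-labelled libraries, against 950.2, 865 and 1006 in the WT-labelled ones. It was lower in both KO-labelled libraries than in any WT-labelled one, by a WT over KO ratio of 1.43 (log2 fold change -0.52, standard error 0.072).

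Cdkn2b, the p15INK4b gene, lies next to Cdkn2a, from 89306289 to 89311032. It had 1556 and 1369 normalized read counts in the KO-labelled libraries and 1518, 1393 and 1401 in the WT-labelled ones, and a log2 fold change of 0.024 (standard error 0.062). Cdkn2c, for p18INK4c, had 1366 and 1323 normalized read counts in the KO-labelled libraries and 1347, 1366 and 1387 in the WT-labelled ones, and a log2 fold change of -0.024 (standard error 0.054). The neighbours Cdkn2a and Cdkn2b thus did not share the same pattern across libraries, though the difference between them was not tested. Cdkn2a made up 61.3% and 64.1% of the summed INK4 RPKM in the KO-labelled libraries and 55.5% to 57.4% in the WT-labelled ones. The sum itself was 201.1 RPKM in both KO-labelled libraries and 177.2 to 194.0 RPKM in the WT-labelled ones.

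Rb1 (chromosome 14, 73192858 to 73325951) encodes the pocket protein that the kinases phosphorylate and that the T antigen binds. In RPKM, though not in normalized counts, Rb1 was the least abundant of the 10 genes in the KO-labelled libraries. It had 859 and 943 normalized read counts in the KO-labelled libraries, against 1044, 1082 and 1081.5 in the WT-labelled ones. Both KO-labelled values were below all WT-labelled ones (log2 fold change -0.25, standard error 0.063). The KO-labelled replicates differed from each other by nearly as much as the higher of them did from WT-labelled replicate 1: without KO-labelled replicate 1 the log2 fold change was -0.18, and without KO-labelled replicate 2 it was -0.32.

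In the KO-labelled libraries the mean levels ran, in RPKM, from Cdk4 (450.3) through Cdkn2a (126), Ccnd1 (124), Ccnd3 (72.9), Cdk6 (32.8), Cdkn2c (32.8), Cdkn2b (28.3), Cdkn2d (13.9) and Ccnd2 (13.9) to Rb1 (5.25). The library values of Cdkn2a and Ccnd1, of Cdk6 and Cdkn2c, and of Cdkn2d and Ccnd2 overlapped, so these neighbours in the order did not differ beyond their spread. In the WT-labelled libraries the order ran from Cdk4 (611) through Ccnd1 (126.5), Cdkn2a (106), Ccnd3 (52.8), Cdkn2c (33.5), Cdk6 (33.0), Cdkn2b (27.9), Cdkn2d (20.04) and Rb1 (6.26) to Ccnd2 (1.58), and of these neighbours only Cdkn2c and Cdk6 overlapped. Ccnd2 thus stood beside Cdkn2d in the KO-labelled libraries and last in the WT-labelled ones. Levels between genes depend on the length used. Dividing the reads by the RPKM gave 2470 bp for Cdk6 and 2260 bp for Ccnd3, against 13989 bp and 8775 bp of annotated exons in GENCODE M21. It gave 1106 bp against 2686 bp for Cdkn2c, 5771 bp against 9409 bp for Ccnd2 and 1346 bp against 3249 bp for Cdk4. The place of such genes in that order can thus depend on which transcripts were taken as the gene.

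In all, 3 of the 10 genes (Ccnd2, Ccnd3 and Cdkn2a) were past the threshold of the test across all genes on the higher side and 3 (Cdk4, Cdkn2d and Rb1) on the lower side. Of all 13062 genes tested, 32.6% passed on the higher and 32.6% on the lower side, 65.3% in all. The same 6 genes were those whose groups did not overlap, which held for 75.4% of all genes tested (37.8% higher and 37.6% lower in the KO-labelled libraries). The median log2 fold change was -0.012 over the 10 genes and -0.0023 over all genes, and the median size of the change was 0.25 and 0.30. Since this contrast chose the set, nothing is read from these counts.

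Several of the 10 genes share exon sequence with a gene on the other strand, and whether reads were counted by strand is not given in the sources used here. Exons of Ccnd3 overlap those of Bysl by 361 bp, and Bysl had 4043 and 4302 normalized read counts in the KO-labelled libraries, against 2570.3, 2657 and 2555 in the WT-labelled ones, so it was higher in the same libraries as Ccnd3. Exons of Cdk4 overlap those of Tspan31 by 641 bp. Tspan31 had 2533 and 2664 normalized read counts in the KO-labelled libraries, against 3326, 3274 and 3143.5 in the WT-labelled ones, and was lower in the same libraries as Cdk4. Ccnd1 overlaps Oraov1 (Lto1) by 1100 bp, and Oraov1 stayed at 331 to 385 normalized counts in the KO-labelled and 347 to 349 in the WT-labelled libraries. Rb1 overlaps Rcbtb2 and Lpar6, by up to 488 bp, and both were higher in the KO-labelled libraries, opposite to Rb1, with log2 fold changes of 0.13 and 0.34 (limma, adjusted p = 0.0241 and 0.00393). Around Ccnd2 the annotated overlaps are with noncoding antisense genes. One of them, 9330179D12Rik, had 5.51 and 2.22 normalized counts in the KO-labelled libraries and at most 0.884 in the WT-labelled ones. Ccnd3 also has a processed pseudogene, Ccnd3-ps, that shares 143 words of 50 bases with its transcripts. The part of shared reads in these differences was not tested.

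The chromosomal surroundings also moved with some of the genes. Among the 80 tested genes within 2 Mb of Cdk4, 45 were lower and 7 higher in the KO-labelled libraries, with a median log2 fold change of -0.31, close to the -0.43 of Cdk4 itself. Among the 56 within 2 Mb of Ccnd3, 36 were higher and 2 lower, with a median of 0.31, beside the 0.47 of Ccnd3. Of all genes tested, 32.6% were higher and 32.6% lower. For Ccnd2 the 29 neighbours had a median of 0.28, with 15 higher and 5 lower, and none had a log2 fold change as large as its 3.13. The tested genes on either side of Ccnd2 were 9630033F20Rik, at 633 and 609 normalized counts in the KO-labelled libraries and 345 to 382 in the WT-labelled ones, and Parp11, at 453.7 in both KO-labelled libraries and 400.4 to 423 in the WT-labelled ones. Cdkn2d had 70 neighbours with a median of -0.092, Cdkn2a 9 with a median of 0.024, and Rb1 11 with a median of 0.12, opposite in sign to its own change. The middle value around Cdkn2a was that of Cdkn2b, itself one of the 10 genes. The part of the surroundings in the changes of the 10 genes was not tested.

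**Figure D3:**
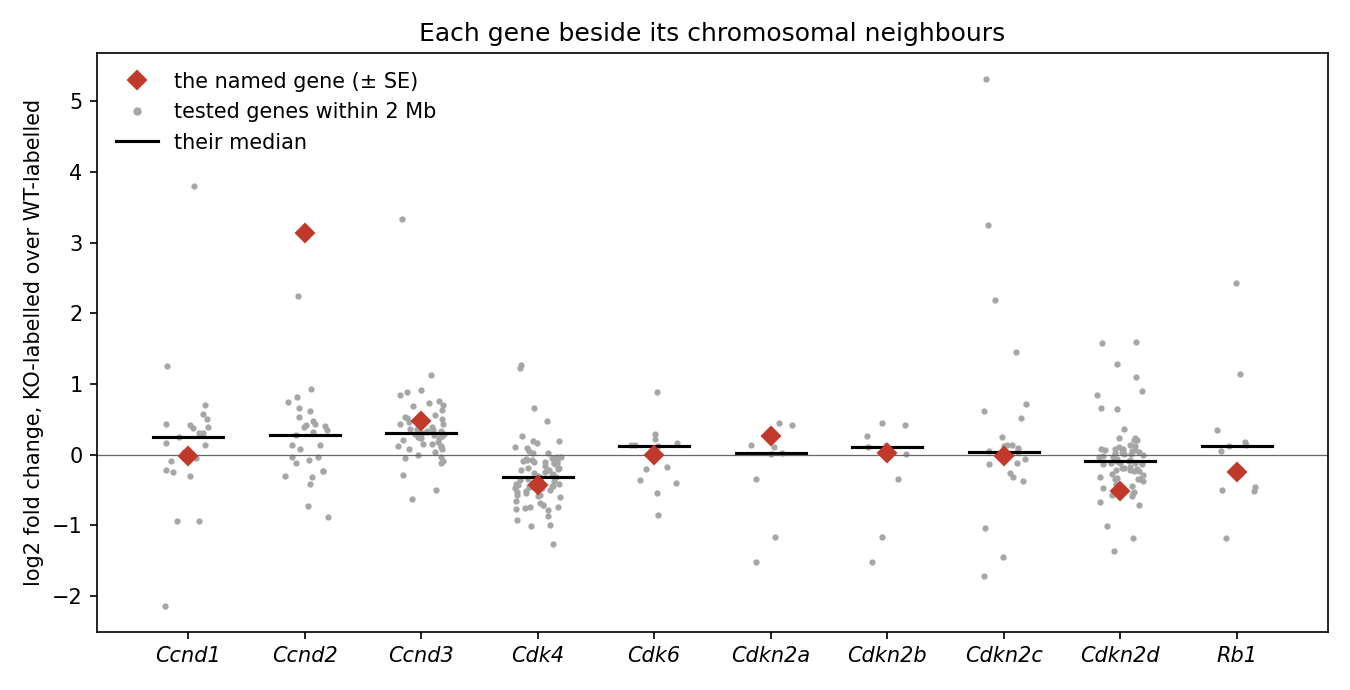
Log2 fold change, KO-labelled over WT-labelled (vertical axis), of each of the 10 genes as a diamond with its standard error, of the tested genes within 2 Mb as grey dots and of their median as a black line. Ccnd2 lies above all 29 of its neighbours, while Cdk4 and Ccnd3 lie within the spread of theirs.

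Among the 5 tested genes outside the lists whose profile over the 5 libraries was nearest to that of Ccnd2 were Adcyap1r1, Nid2, Dchs1 and Gpc4, by Euclidean distance between log2 profiles centred on their means (0.137 to 0.219). Adcyap1r1, a receptor gene for the neuropeptide PACAP, had 458 and 510.4 normalized read counts in the KO-labelled libraries, against 47.7, 56.4 and 51.8 in the WT-labelled ones. Gpc4, a glypican of the cell surface, had 1070.4 and 1102 in the KO-labelled libraries and 133, 117 and 118 in the WT-labelled ones. Nid2, a basement membrane nidogen, averaged 946 ± 58.2 (SD, n = 2) in the KO-labelled libraries and 116 ± 6.73 (SD, n = 3) in the WT-labelled ones. With 5 libraries in 2 groups, such a likeness follows by construction mostly from the size of the group difference.

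The question of how the rest of the RB pathway differed was put to 125 other genes in 9 lists, of which 124 were tested. Of these, 44 (35.5%) were higher and 45 (36.3%) lower in the KO-labelled libraries (limma, adjusted p under 0.05), where 32.6% and 32.6% of all genes were. Over the lists pooled, counts in both directions were thus close to those of all genes, and no list moved as 1 block. Single lists, some of few genes, ran from 8.7% to 50% higher and from 20% to 50% lower. The shares given with each list below are to be read beside the 32.6% and 32.6% of all genes.

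**Figure D4:**
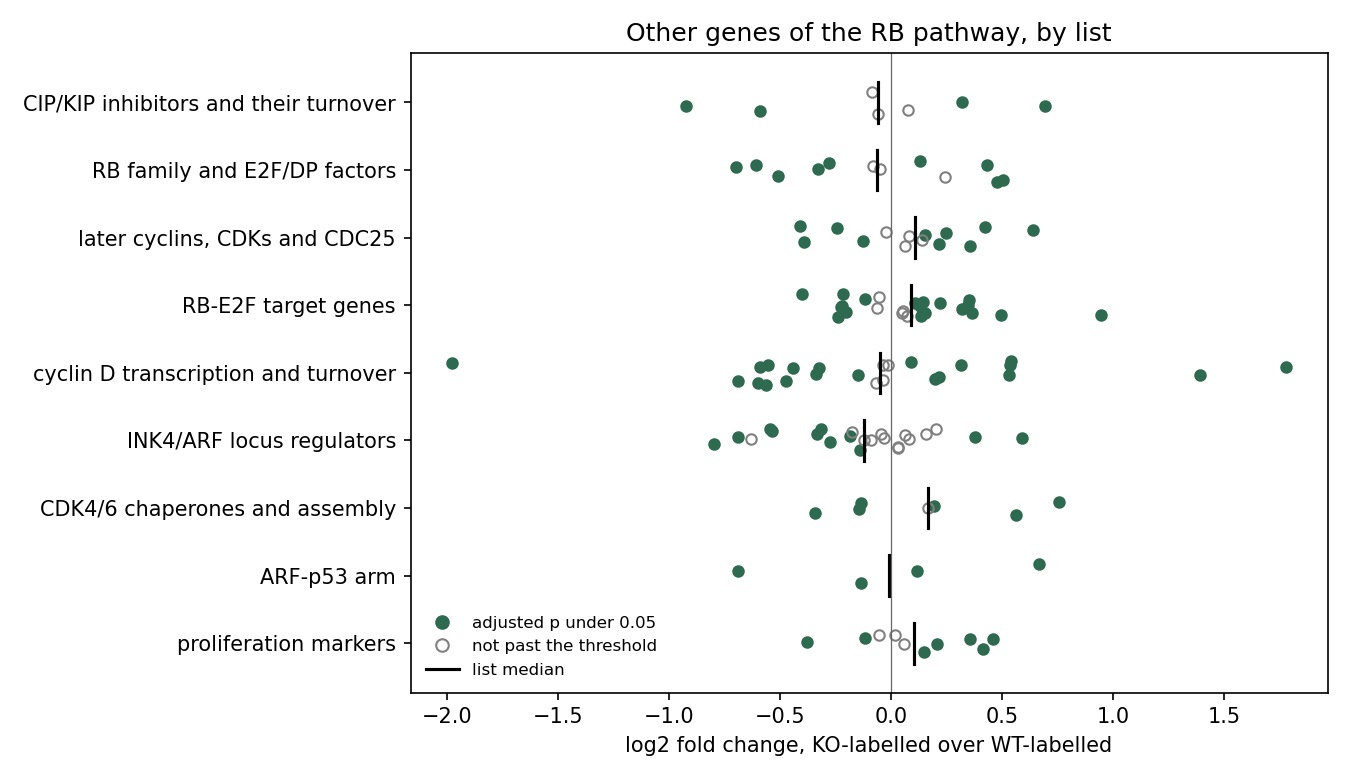
Log2 fold change, KO-labelled over WT-labelled (horizontal axis), of the tested genes of 9 lists of the RB pathway, 1 dot per gene, filled where the adjusted p was under 0.05, with the list median as a black line. Every list has filled dots on both sides of 0, and the medians lie between -0.12 and 0.17.

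Among the CIP/KIP inhibitors and the proteins that control their turnover, 2 of 7 tested genes rose (28.6%) and 2 fell (28.6%). The median log2 fold change was -0.059. Cdkn1b, for p27KIP1, rose to 1070 and 1051 normalized read counts in the KO-labelled libraries, against 668, 605 and 694 in the WT-labelled ones (log2 fold change 0.69, limma, adjusted p = 2.5e-08). Cdkn1a, for the p53 target p21CIP1, fell to 2552 and 2823 in the KO-labelled libraries, against 5141, 5002 and 5142 in the WT-labelled ones (log2 fold change -0.92, adjusted p = 1.1e-13). The main inhibitors of the family thus changed in opposite directions. Cks1b, a cofactor of the ubiquitin ligase that removes p27, rose by 0.32, and Rnf123, which encodes another ligase for p27, fell by 0.59 on the log2 scale.

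Pocket proteins and E2F/DP factors gave 4 higher (33.3%) and 5 lower (41.7%) of 12 (median -0.065). E2f4, the abundant E2F of quiescent cells that works with the pocket proteins p107 and p130, averaged 8787 ± 188 (SD, n = 2) in the KO-labelled libraries and 6308 ± 239 (SD, n = 3) in the WT-labelled ones (log2 fold change 0.48, limma, adjusted p = 9.6e-10). E2f5, its close relative, rose by 0.43 on the log2 scale. E2f8, an atypical E2F that represses transcription, fell, and averaged 2113 ± 198 (SD, n = 2) in the KO-labelled libraries and 3419 ± 44.5 (SD, n = 3) in the WT-labelled ones, and E2f6 fell by 0.61 on the log2 scale, among 11 neighbours with a median of -0.42. E2f7, the closest relative of E2f8, did not pass, at -0.081. The dimer partners split, with Tfdp1 at 0.50 and Tfdp2 at -0.51. The 27 tested neighbours of Tfdp1 within 2 Mb had a median log2 fold change of 0.54, with 25 higher and 0 lower, and their part in its rise was not tested. E2f1 and Rbl2 (p130), named after their values were seen, fell by 0.33 and 0.28, and Rbl1 (p107) rose by 0.13, a call that was lost without WT-labelled replicate 1 (limma, adjusted p = 0.0642) or replicate 3 (0.0593).

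Later cyclins, their kinases and CDC25 phosphatases gave 6 higher (42.9%) and 4 lower (28.6%) of 14 (median 0.11). Ccna2, for the cyclin of S phase and G2, averaged 19431 ± 130 (SD, n = 2) in the KO-labelled libraries and 14509 ± 457 (SD, n = 3) in the WT-labelled ones (log2 fold change 0.42, limma, adjusted p = 2.3e-09). Ccnf, an F-box cyclin, rose by 0.64 and Ccnb1, the mitotic cyclin, by 0.36. Cdk2, the partner of cyclins E and A, fell by 0.41 and Cdc25b, an activating phosphatase, by 0.39. The 104 neighbours of Ccnf had a median of 0.35, and the 79 of Cdk2 one of -0.31. Cdk2 lies on chromosome 10 and was itself among the 80 neighbours of Cdk4. Ccnh, for the cyclin of the CDK-activating kinase, was at -0.24 (limma, adjusted p = 0.00446). The call was lost without KO-labelled replicate 2 (log2 fold change -0.23). It was also lost with DESeq2 on 4 libraries, without WT-labelled replicate 2 (adjusted p = 0.109). The authors' deposited DESeq2 comparison made the call (adjusted p = 0.0125). The cyclin E genes, which act next after the D cyclins, did not pass, with Ccne1 at 0.081 and Ccne2 at 0.14.

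RB-E2F target genes of DNA replication gave 12 higher (50%) and 7 lower (29.2%) of 24, with a median log2 fold change of 0.092. Cdt1, a loader of the replicative helicase, had 4870 and 5482 normalized read counts in the KO-labelled libraries, against 2748, 2661 and 2637 in the WT-labelled ones (log2 fold change 0.95, limma, adjusted p = 2.1e-13). It lies on chromosome 8 among 57 tested neighbours with a median of 1.02, of which 54 were higher, so its value was no larger than theirs. Mybl2 and Uhrf1 rose by 0.50 and 0.35, and the 46 neighbours of Uhrf1 had a median of 0.33. The helicase subunit genes Mcm3 and Mcm6 fell by 0.22 and 0.24, and Brca1 by 0.40. The 91 neighbours of Brca1 had a median of -0.42. Proliferation markers gave 5 higher (50%) and 2 lower (20%) of 10 (median 0.10), with Mki67 at 0.46, Plk1 at 0.41 and Top2a at -0.38. The 21 neighbours of Plk1 had a median of 0.42, the 12 of Mki67 one of 0.32 and the 74 of Top2a one of -0.35, with 54 lower and 9 higher. Cenpf was at -0.12 (limma, adjusted p = 0.0102), a call lost without KO-labelled replicate 2 (log2 fold change -0.094). On 4 libraries, without WT-labelled replicate 2, edgeR (adjusted p = 0.055) and DESeq2 (0.0764) did not make it. The authors' deposited comparison did.

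Regulators of cyclin D transcription and turnover showed the widest range of the lists, with 9 higher (37.5%) and 11 lower (45.8%) of 24 (median -0.052). Stat5a, a transcription factor known to drive D cyclin genes in blood cells, had 215 and 186 normalized read counts in the KO-labelled libraries, against 817, 803 and 750.3 in the WT-labelled ones (log2 fold change -1.98, limma, adjusted p = 3.4e-14). It was thus lower in the libraries in which Ccnd2 was higher. Stat5b, its neighbour on chromosome 11, fell by 0.55, close to the median of -0.44 of the 88 genes around it. The 86 neighbours of Stat5a had the same median, with 72 lower and 3 higher. Foxo3, a forkhead factor known to repress Ccnd1 and Ccnd2 transcription, fell by 0.59, with 812 and 931 in the KO-labelled libraries and 1271, 1276 and 1389 in the WT-labelled ones (adjusted p = 1e-07). Fbxo31, an F-box protein reported to direct cyclin D1 to the proteasome after DNA damage, had 1062 and 1145 in the KO-labelled libraries, against 451, 407 and 401.5 in the WT-labelled ones (log2 fold change 1.39, adjusted p = 1.3e-12). Its 56 neighbours on chromosome 8 had a median of 0.96. Cul4a and Ddb1, of the ligase that with AMBRA1 degrades D cyclins, both rose by 0.54, and the 29 neighbours of Cul4a had a median of 0.54 and the 67 of Ddb1 one of 0.39, with 46 higher and 6 lower.

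The next 3 genes were named after their values were seen. Lef1, a factor of the WNT pathway that acts with beta-catenin on Ccnd1, had 227 and 265 normalized read counts in the KO-labelled libraries, against 81.3, 78.2 and 55.5 in the WT-labelled ones (log2 fold change 1.78, limma, adjusted p = 1.7e-08). Myc, whose protein is known to activate Ccnd2 and Cdk4, rose to 3748 and 3910 normalized read counts in the KO-labelled libraries, against 2979, 3101 and 3161 in the WT-labelled ones (log2 fold change 0.31, adjusted p = 2e-06). Ccnd2 and Cdk4 were on opposite sides, higher and lower in the same libraries. Ambra1, the substrate receptor for D cyclins, fell by 0.15. DESeq2 on whole reads of 4 libraries, without WT-labelled replicate 2, did not make that call (adjusted p = 0.0597). The authors' deposited comparison did.

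Regulators of the INK4/ARF locus gave 2 higher (8.7%) and 9 lower (39.1%) of 23, with a median of -0.12. Of all genes tested, 32.6% were higher and 32.6% lower. The 2 that rose were Bmi1 and Ezh2, Polycomb genes known to silence Cdkn2a. Bmi1 averaged 4175 ± 259 (SD, n = 2) in the KO-labelled libraries and 2775 ± 119 (SD, n = 3) in the WT-labelled ones (log2 fold change 0.59, limma, adjusted p = 6.7e-10). Ezh2 rose by 0.38, while its paralogue Ezh1 fell by 0.80, among 91 neighbours with a median of -0.42. Cbx6, another Polycomb gene, fell by 0.55, and Zbtb7a, a repressor of ARF, fell to 3350 ± 115 (SD, n = 2) in the KO-labelled libraries, against 5410 ± 126 (SD, n = 3) in the WT-labelled ones (log2 fold change -0.69, adjusted p = 3.2e-12). The 119 neighbours of Zbtb7a had a median of -0.30, with 76 lower and 7 higher, and the 24 of Ezh2 one of 0.26. Cdkn2a itself, as given above, was slightly higher in the KO-labelled libraries.

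In the arm from ARF to p53, the 4 genes split, with 2 higher (50%) and 2 lower (50%). Mdm2, the p53 ligase gene and itself a p53 target, fell to 3881 and 3869.9 normalized read counts in the KO-labelled libraries, against 6183, 6476.5 and 6095 in the WT-labelled ones (log2 fold change -0.69, limma, adjusted p = 2.2e-12). Npm1, for the nucleolar partner of ARF, averaged 25079 ± 2401 (SD, n = 2) in the KO-labelled libraries and 15755 ± 647 (SD, n = 3) in the WT-labelled ones. It has many near-identical pseudogenes, so its value is uncertain where the counting could split reads. Mdm4, for the relative of MDM2, was at -0.13 (limma, adjusted p = 0.013). The call was lost without KO-labelled replicate 1 (log2 fold change -0.12) or WT-labelled replicate 2 (limma, adjusted p = 0.0544). On the 4 libraries without that WT-labelled replicate, edgeR (adjusted p = 0.061) and DESeq2 (0.142) did not make it. The authors' deposited comparison did. Trp53 was at 0.12 on the log2 scale (adjusted p = 0.0129), a call that was lost without WT-labelled replicate 1 (limma, adjusted p = 0.0599), WT-labelled replicate 3 (0.0722) or KO-labelled replicate 2 (0.137). Genes for chaperones and assembly factors of CDK4 gave 3 higher (42.9%) and 3 lower (42.9%) of 7. Hsp90ab1, for the chaperone that folds CDK4, rose by 0.76, and Cdc37, for the cochaperone that brings CDK4 to it, was at -0.14 (adjusted p = 0.0056), a call lost without WT-labelled replicate 3 (0.0724). Hsp90aa1, the inducible paralogue, rose by 0.19 and Ccdc85b by 0.56, while Ccndbp1, for a protein that binds D cyclins, fell by 0.34. Sertad1, for a protein that binds CDK4, was at -0.15 (adjusted p = 0.0184), a call lost without KO-labelled replicate 2 (0.0797), WT-labelled replicate 1 (0.0802) or WT-labelled replicate 3 (0.0796) and not made in the authors' deposited table (0.0503). The 56 neighbours of Hsp90ab1 had a median of 0.27 and the 145 of Ccdc85b one of 0.28.

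Of the other named genes of the lists, the median log2 fold change of the neighbours within 2 Mb had the same sign as the gene for Cdkn1b (median 0.30 over 21 genes), E2f4 (0.24 over 75), Tfdp2 (-0.30 over 20), Sertad1 (-0.21 over 77) and Rbl2 (-0.30 over 10), among others. It had the opposite sign for Cdkn1a (0.36 over 43), Mcm3 (0.44 over 5) and Myc (-0.29 over 5). The sign was also opposite for E2f8 (median 0.10), Mybl2 (-0.13), Bmi1 (-0.19), Foxo3 (0.07) and Npm1 (-0.15). The same held for Hsp90aa1 (-0.12), Ccnh (0.15), Rbl1 (-0.16), Cks1b (-0.013) and Trp53 (-0.0005). The medians given beside single genes in the list paragraphs above were all of the same sign as the gene. Nearby genes share neighbours, as do Cdk4 and Cdk2, Ccnd3 and Hsp90ab1, Fbxo31 and Cdt1, and Tfdp1 and Cul4a. So do Stat5a, Stat5b, Ezh1 and Brca1. Their medians are thus not separate readings. The part of the surroundings in the changes of the named pathway genes was not tested.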

How the data were processed

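Poly-T selected RNA from 5 mouse fibroblast samples was made into Nextera XT libraries and read on a NextSeq instrument, per the labels' protocols. STAR, DESeq2 and mm10 are named in the submitters' processing notes. How reads were counted, with which annotation and strand setting, is not given in the sources used here. Each library's deposited signal column holds normalized read counts: 100% of values were whole multiples of 1 step (tolerance 0.1 reads). The authors also deposited RPKM, log2 fold changes, a Wald statistic (score) and p-values, per the file headers. Normalized counts and RPKM were used here, and the authors' comparison as an alternative.

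Normalized values called for limma 3.58.1 (R 4.3.3, trended prior), fitted to log2(value + 1) with genotype as the factor. A gene was kept if at least 2 libraries reached 10, which left 13062 genes, and Benjamini-Hochberg adjustment (two-sided, 0.05) ran over all of them. The fit was tested on simulated counts. The 10 genes and all lists were chosen with earlier results of these data known. Named are the 10 genes, up to 3 called genes per pathway list and direction with the smallest adjusted p, the 5 genes nearest to Ccnd2, of which 1 is not reported here, and Sirt3. Alternatives were TMM scaling, other filters and pseudocounts, RPKM, leaving out each library, a replicate block, and edgeR 4.0.16 and DESeq2 1.42.0 on recovered reads. The last 2 used 4 libraries and left out WT-labelled replicate 2, whose step of 0.989 is near 1. Its values were whole multiples of that step as well, so its reads could also be recovered. Differences of these 2 fits from the others thus mix the method with the missing library. On the 4 libraries edgeR called 4147 genes higher and 3956 lower. Gene positions are RefSeq's and exon overlaps, examined for the 10 genes only, GENCODE M21's. Of the symbols, 25 read as dates and name no gene here.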

Additional observations from a re-analysis of the deposited data

How the results depend on the processing

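The same 3 of the 10 genes were called higher and the same 3 lower under all 15 alternatives run. The Ccnd2 log2 fold change ran from 3.05 to 3.21, that of Ccnd3 from 0.46 to 0.49, Cdk4 from -0.46 to -0.41, Cdkn2a from 0.21 to 0.30, Cdkn2d from -0.58 to -0.47 and Rb1 from -0.32 to -0.18. Ccnd1, Cdk6, Cdkn2b and Cdkn2c were not called under any of the 15, and the first 3 of these took either sign. The pathway lists gave 38 higher and 38 lower with DESeq2 on whole reads, 42 and 41 with edgeR, and 38 to 42 higher and 42 to 43 lower with 1 library left out. The authors' deposited table called 43 higher and 41 lower. With the replicate number as a block, 3 of the 10 genes were higher and 3 lower, and the pathway lists gave 37 and 42. Only the WT-labelled group had a replicate 3, so that library adds nothing to the fold changes of the block fit. They equal those of the fit without WT-labelled replicate 3 (3.14 for Ccnd2 in both). The block is thus not a separate estimate among the 15 alternatives. Same-numbered libraries did not deviate together (correlations of -0.0098 and -0.0050). With 2 KO-labelled libraries, whose deviations mirror each other, these correlations cannot show whether same-numbered libraries share a batch. Under the block the calls of Cdc37, Sertad1, Trp53 and Rbl1 were lost (limma, adjusted p = 0.0976, 0.0885, 0.0902 and 0.0738). The same calls were lost without WT-labelled replicate 3. In all, 25 of 810 values of named pathway genes and Sirt3 under alternatives lost the call and 0 changed direction. Most of these genes were named for small adjusted p-values in the main fit, a choice that itself favours kept calls. The other filters cannot change a fold change, so this count is no measure of how stable the calls of unselected genes are. The call of Sirt3 as higher in the KO-labelled libraries was lost without KO-labelled replicate 2 (log2 fold change 0.47). Fits without 1 KO-labelled library assume that the lone library varies like the others. Without division by length, the D cyclin shares were 65.8% Ccnd1, 11.2% Ccnd2 and 23.1% Ccnd3 in the KO-labelled libraries and 78.9%, 1.502% and 19.6% in the WT-labelled ones, since of these genes Ccnd2 has the longest and Ccnd3 the shortest length behind the RPKM.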
